A study of Mus musculus with 19 samples.

Results

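The matrix proteases described here are the protein-coding genes of the Mmp, Adam and Adamts families together with the Adamtsl genes, which encode relatives without a protease domain. They were chosen by symbol from the RefSeq gene table (symbols that begin with Mmp, Adam or Adamts and a digit, or with Adamtsl), with 1 further Adamts gene left out by the rule. This gave 80 of 21887 protein-coding genes, of which 23 were Mmp, 34 Adam, 18 Adamts and 5 Adamtsl genes. A CpG site was assigned to a gene when it lay inside it or within 2 kb of either end. The gene table marks no exons, so exons, introns and untranslated regions were not distinguished.

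Liver DNA came from 19 mice aged 10 months and was read by reduced-representation bisulfite sequencing, which measures cytosine methylation in fragments cut out by the restriction enzymes MspI and TaqαI. The groups were 8 wild-type mice without treatment (WT), 6 Mat1a knockout mice given placebo (KO placebo) and 5 Mat1a knockout mice given S-adenosylmethionine (KO SAMe), with a treatment period of 8 weeks per the series title. Mat1a encodes the liver enzyme that makes S-adenosylmethionine, the methyl donor for DNA methylation. The WT mice received no placebo, so genotype and the placebo or SAMe procedure cannot be told apart in either WT comparison. The authors' 3 deposited tables list single CpG sites that passed their thresholds, with a difference in percentage points, a p-value and a q-value. They hold no methylation level, coverage or value for any animal, so depth is unknown, no SD can be given, and neither the tissue nor the knockout could be checked against the data. The sign was taken to mean knockout minus WT and, among knockouts, SAMe minus placebo. The deposited tables leave this order unstated, and the reverse order would flip all directions below at once.

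Matrix metalloproteinases are zinc-dependent enzymes, secreted or held at the cell surface, that cut collagens and other matrix proteins. ADAM proteins sit in the cell membrane, and those with an active protease domain release growth factors, cytokines and receptors from the cell surface. ADAMTS enzymes are secreted and cut proteoglycans, procollagens or von Willebrand factor, while the ADAMTSL proteins bind matrix without cutting it. In liver these proteases are known for the matrix turnover that goes with injury and fibrosis, with stellate cells, macrophages and endothelial cells among their sources.

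Because the tables report single cytosines, the start regions of the genes that turned out to carry the most listed sites, and of the gene listed between the knockout groups, are shown to place those sites. Each line gives the 250 bases before an annotated start, from RefSeq on GRCm38.p6, read 5′ to 3′ on the gene's strand. Capitals mark the recognition letters of the library enzymes, CCGG for MspI and TCGA for TaqαI, which read the same on both strands and cannot overlap each other. Mmp14 (chr14:54431348-54431597, plus strand) held 10 CpG and 1 match to each motif. Adamtsl5 (chr10:80348449-80348698, minus strand) held 22 CpG, 2 CCGG and 1 TCGA. Mmp23 (chr4:155653291-155653540, minus strand) held 18 CpG and 3 CCGG. Another annotated Mmp23 start, whose stretch (13 CpG, 1 CCGG) overlaps this one, is not shown. Mmp24 (chr2:155775092-155775341, plus strand) held 33 CpG and 5 CCGG.
Mmp14: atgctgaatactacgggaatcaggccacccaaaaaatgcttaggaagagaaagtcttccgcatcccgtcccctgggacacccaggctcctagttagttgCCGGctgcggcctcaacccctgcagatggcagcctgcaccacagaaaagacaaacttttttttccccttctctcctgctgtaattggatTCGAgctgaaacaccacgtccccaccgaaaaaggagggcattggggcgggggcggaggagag
Adamtsl5: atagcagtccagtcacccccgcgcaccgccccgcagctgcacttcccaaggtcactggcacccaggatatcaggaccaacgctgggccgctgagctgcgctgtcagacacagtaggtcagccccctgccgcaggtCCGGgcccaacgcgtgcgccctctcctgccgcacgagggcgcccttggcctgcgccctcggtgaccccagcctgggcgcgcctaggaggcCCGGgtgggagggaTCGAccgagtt
Mmp23: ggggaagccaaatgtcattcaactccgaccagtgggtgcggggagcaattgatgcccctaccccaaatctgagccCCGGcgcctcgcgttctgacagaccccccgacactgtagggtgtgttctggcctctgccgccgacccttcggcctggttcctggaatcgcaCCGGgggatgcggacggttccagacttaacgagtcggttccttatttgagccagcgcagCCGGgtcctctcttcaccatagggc
Mmp24: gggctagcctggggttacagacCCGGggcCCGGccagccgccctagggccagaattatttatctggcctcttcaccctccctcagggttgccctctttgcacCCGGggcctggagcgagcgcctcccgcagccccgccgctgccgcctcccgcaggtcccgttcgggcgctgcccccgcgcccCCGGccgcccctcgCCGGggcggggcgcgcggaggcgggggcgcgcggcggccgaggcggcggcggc

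None of the listed family sites fell in any of these stretches. Of the 21 distinct positions assigned to the families, 0 lay in a promoter window of any gene, taken from 250 bases before to 50 after an annotated start. Over all listed sites, 1.22% in WT vs KO placebo, 1.02% in WT vs KO SAMe and 0.870% in KO placebo vs KO SAMe did. Beside shares this small, 0 of 21 positions does not set the families apart. The promoter table matched 49 of the 80 genes with 54 windows. It held no window for Adam18, Adamts15, Adamts16, Adamts19 or Adamtsl1, which had listed sites, so a site at their own starts could not be found. CCGG was present in 51.9% of their 250-base stretches and in 47.1% of the 32851 stretches of all genes in the table, and TCGA in 14.8% and 18.5%. A match is a description of the letters and does not show that a fragment was read.

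Placebo-treated knockout liver was compared with WT liver first. Of the 80 family genes, 8 (10.0%) had a listed site, against 12.5% of all protein-coding genes, so the families were listed about as often as other genes. All 15 of their sites were lower in KO placebo, and 99.4% of all sites in the authors' deposited table were lower as well. The median difference of the family sites was −24.7 percentage points, beside −25.9 over all listed sites. The authors' deposited table held 3 or more sites for 2 of the 80 genes (2.5%, against 2.63% of all coding genes) while 1 gene reached an absolute difference of 35 percentage points or more (1.25%, against 2.7%).

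SAMe-treated knockout liver gave a similar count against WT. Here 9 of the 80 genes (11.2%) had a listed site, beside 10.8% of all protein-coding genes. All 16 sites were lower in KO SAMe, as were 99.0% of all sites in the authors' deposited table. In KO SAMe 2 of the 80 genes had 3 or more sites (2.5%, against 2.26% of all coding genes) and 2 reached 35 percentage points (2.5%, against 2.64%). The median of the family sites was −24.6 percentage points, beside −26.6 over all listed sites. Both WT comparisons share the WT animals, so their values are set side by side below and are not separate evidence. In all, 12 of the 80 genes (15.0%) had a site in at least 1 comparison, and 15.0% of all protein-coding genes did. Median gene length was 57.8 kb for the 12 genes and 20.8 kb for the other 68. Among all coding genes it was 34.0 kb for those with a site and 15.3 kb for those without.

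**Figure D1:**
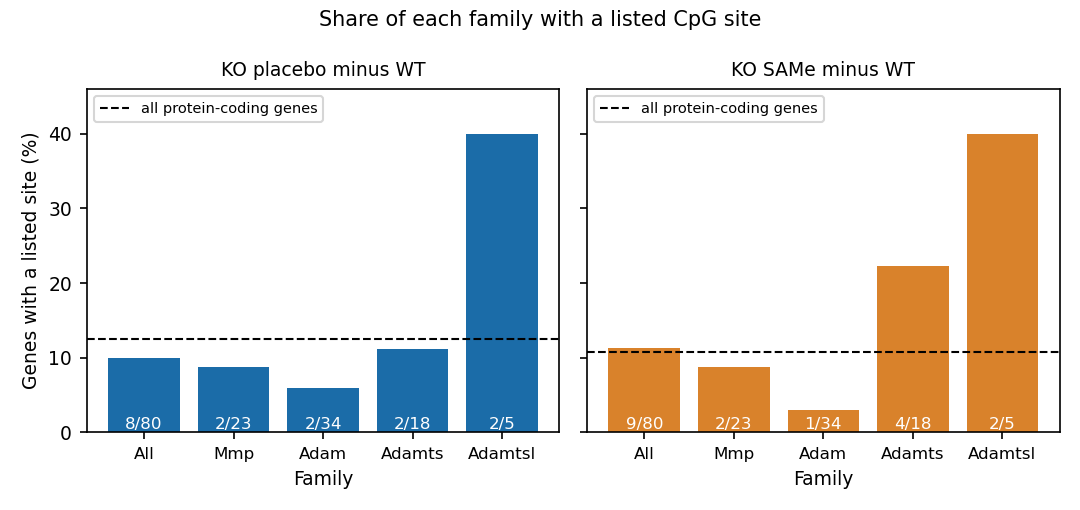
Percentage of genes with a listed CpG site for all 80 genes and for each family (x axis), in KO placebo against WT (left) and KO SAMe against WT (right). Bars carry the number of genes with a site over the number in the family, and the dashed line is the share among all protein-coding genes (12.5% and 10.8%). The bars for all 80 genes, at 10.0% and 11.2%, lie close to the line, while single families of 5 to 34 genes scatter around it.

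The Mmp genes were led by Mmp14, which encodes a collagenase anchored in the cell membrane that also activates progelatinase A. The gene spans chromosome 14 from 54431598 to 54442456 (mm10) on the plus strand, and 6 distinct CpG positions in or near it were listed, 5 in each WT comparison. The first lay inside the gene at position 54434231, 2633 bp after the annotated start, and stood at −23.8 percentage points in KO placebo and −22.5 in KO SAMe in the authors' deposited tables (q = 1.03e-11 and 4.49e-08). It was the listed site of Mmp14 nearest to the start and its values in the knockout groups were 1.26 percentage points apart.

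A second stretch inside Mmp14 lay more than 8 kb after the start. Position 54439913 was lower by 23.8 percentage points in KO placebo and by 30.1 in KO SAMe in the authors' deposited tables. Its neighbour 54439864, within the same 50 bp, was listed only in the KO SAMe table at −29.1. The absence of that neighbour from the KO placebo table means a difference below the thresholds or missing coverage, and does not show that the knockout groups differed there.

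The remaining Mmp14 sites formed a run of 28 bp beyond the 3′ end of the gene. At position 54443853, 1397 bp past the end, the authors' deposited tables gave −25.8 percentage points in KO placebo and −20.8 in KO SAMe. Position 54443866 was listed at −23.9 in KO placebo alone. Position 54443880 had the largest Mmp14 difference in both tables, −34.4 in KO placebo and −30.1 in KO SAMe, each with a q-value the authors' deposited tables list as 0. The mean over the 3 KO placebo sites of this run was −28.0 percentage points (SD 5.62 over sites, not animals), and over the 2 KO SAMe sites −25.4. Sites this close together can share reads, so they are not separate measurements. No other protein-coding gene lay within 2 kb of any Mmp14 site. Mmp14 and Mat1a are both on chromosome 14, 13.3 Mb apart, and what the knockout allele's surroundings contribute to the Mmp14 values was not tested.

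**Figure D2:**
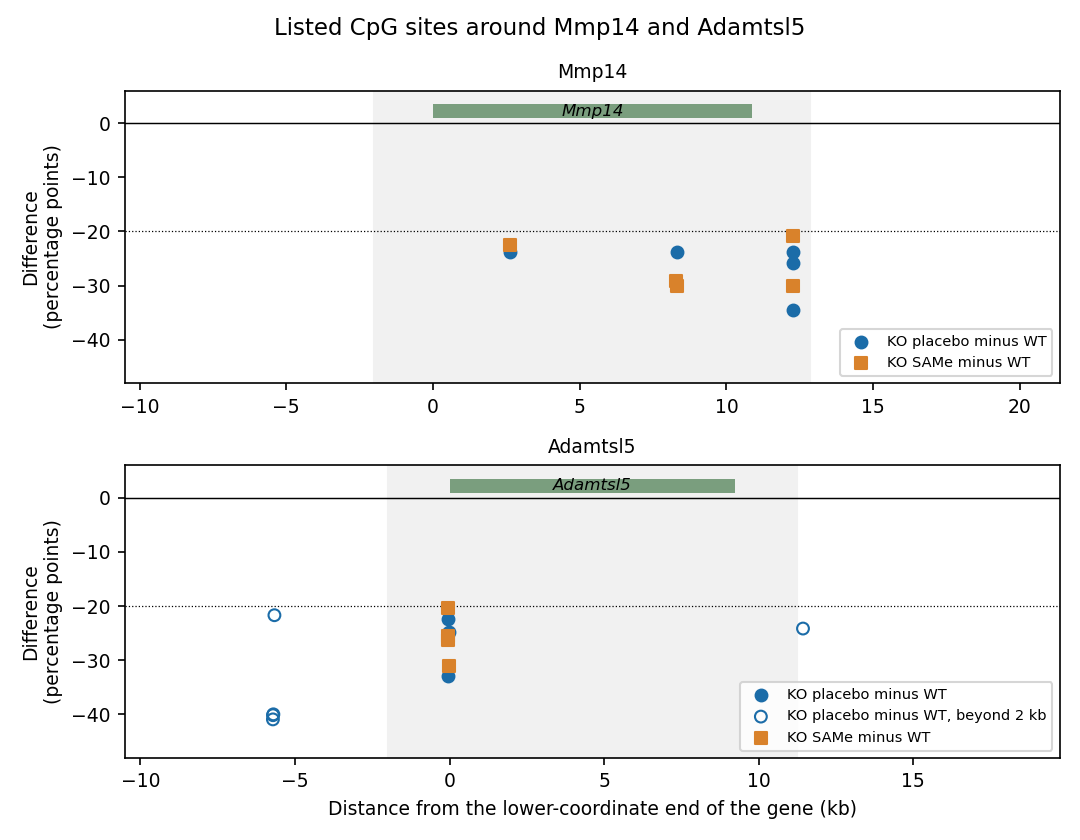
Methylation difference (y axis, percentage points) of listed CpG sites against distance from the lower-coordinate end of Mmp14 (top, plus strand) and Adamtsl5 (bottom, minus strand), in kb. Green bars are the genes, grey shading the gene with 2 kb on either side, the dotted line −20 percentage points, filled symbols the assigned sites and open symbols sites farther out. Mmp14 sites sit at 3 places, the last past its 3′ end, and all 4 assigned Adamtsl5 sites sit within 47 bp of its 3′ end.

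Mmp24 encodes another membrane-anchored metalloproteinase, known mainly from the nervous system. It had 2 listed positions on chromosome 2, both inside the gene (155775342 to 155818367) and each in 1 table. Position 155805198 stood at −26.9 percentage points in KO placebo with a q-value listed as 0 in the authors' deposited table. Position 155812361 stood at −20.2 in KO SAMe in the authors' deposited table (q = 9.32e-11), close to the smallest difference listed. The Mmp24 sites lay 29856 and 37019 bp from the start shown above.

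The gelatinase genes Mmp2 and Mmp9, the interstitial collagenase genes Mmp1a, Mmp1b, Mmp8 and Mmp13 and the stromelysin genes Mmp3 and Mmp10 had no listed site in any table. A gene without a listed site either stayed below the authors' thresholds or was not covered. Altogether 2 of 23 Mmp genes (8.70%) had a site in each WT comparison, beside 12.5% and 10.8% of all coding genes.

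The Adam family had the lowest share of genes with a listed site, 2 of 34 (5.88%) in KO placebo and 1 of 34 (2.94%) in KO SAMe. These shares stand beside 12.5% and 10.8% of all coding genes, and such small counts cannot rank the families. Adam8, a sheddase of leukocytes, had a single site inside the gene on chromosome 7 (position 139988368, 4194 bp from the annotated start), at −20.4 percentage points in KO placebo with q listed as 0 in the authors' deposited table. This was near the bottom of the listed range, rank 6408 of 6721 by absolute difference.

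Adam18, which encodes a sperm-surface protein, was listed in both WT comparisons for a site outside the gene. Position 24600526 on chromosome 8 lay 1720 bp below the gene's lower-coordinate end and 3574 bp from Ido1, which encodes a tryptophan-degrading enzyme. The authors' deposited tables gave −21.2 percentage points in KO placebo (q = 0.00122) and −22.3 in KO SAMe (q = 0.000437). Of all assigned positions it was the nearest to the 2 kb limit from inside. The nearest family site outside the limit lay 2196 bp past the upper end of Adamtsl5 (−24.2 in the authors' deposited KO placebo table). Adam10 and Adam17, the widely expressed sheddases of Notch and of tumour necrosis factor, had no listed site.

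Among the Adamts genes, 2 of 18 (11.1%) had a site in KO placebo and 4 of 18 (22.2%) in KO SAMe. All coding genes gave 12.5% and 10.8%, and counts this small do not set the Adamts genes or the 2 comparisons apart. All Adamts sites were inside the gene, 1 site per gene. Adamts19, a gene of heart valve development, had the largest difference of the families. At position 58958151 of chromosome 18 the authors' deposited tables gave −46.8 percentage points in KO placebo and −47.1 in KO SAMe, both with q listed as 0. These were ranks 241 of 6721 and 232 of 5383 by absolute difference. The site lay 122159 bp from the lower-coordinate end of a gene of 218 kb. The values in the knockout groups were nearly equal, differing by −0.28 percentage points (SAMe minus placebo).

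The other Adamts sites were small and appeared in 1 table each. Adamts15, which encodes a protease of aggrecan and versican, stood at −21.3 percentage points in KO placebo in the authors' deposited table (chromosome 9, position 30902421, q = 3.08e-06). In KO SAMe, Adamts2, which removes the amino-terminal propeptide of procollagen, stood at −21.0 in the authors' deposited table (chromosome 11, position 50715752, q = 7.56e-05). Adamts16, a gene linked to kidney and gonad development, stood at −23.5 in the same authors' deposited table (chromosome 13, position 70819278, q = 5.24e-08). Adamts18, a gene known from eye and lung development, stood at −21.4 in the authors' deposited table (chromosome 8, position 113725522, q = 2.68e-07). All 4 values lie within 4 percentage points of the smallest listed difference, and a listing in 1 table alone does not show that the knockout groups differ. Adamts13, the von Willebrand factor protease made by stellate cells, and Adamts1, Adamts4 and Adamts5, which cut aggrecan and versican, had no listed site.

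The Adamtsl genes had a site in 2 of 5 genes (40%) in both WT comparisons. All coding genes gave 12.5% in KO placebo and 10.8% in KO SAMe, and a count of 2 is too small to set against these shares. Adamtsl1, which encodes a matrix protein also called punctin, is the longest gene of the set (915 kb). Its single site at position 86347704 of chromosome 4, inside the gene, stood at −34.3 percentage points in KO placebo and −37.7 in KO SAMe in the authors' deposited tables, with q listed as 0 in both. After Adamts19, it held the largest KO SAMe difference of the families.

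Adamtsl5, whose product binds heparin and fibrillin microfibrils, had 4 sites within 43 bp of chromosome 10, all listed in both WT comparisons. They lay 5 to 47 bp beyond the 3′ end of the gene, which runs from 80339793 to 80349030 on the minus strand. At position 80339746 the authors' deposited tables gave −24.99 percentage points in KO placebo and −26.2 in KO SAMe. Position 80339756 stood at −32.9 and −25.6 in the authors' deposited tables. Position 80339758, only 2 bases on, stood at −22.4 and −20.4 in the authors' deposited tables. Nearest to the gene, position 80339788 stood at −24.7 in KO placebo and −31.1 in KO SAMe in the authors' deposited tables. The position with the largest difference therefore was not the same in the knockout groups, while the means over the 4 sites were −26.3 (SD 4.58 over sites) and −25.8 (SD 4.35). The largest q-value among the 8 entries was 0.000444. The closest other coding gene, Reep6, ended 3305 bp away from the first of these sites.

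**Figure D3:**
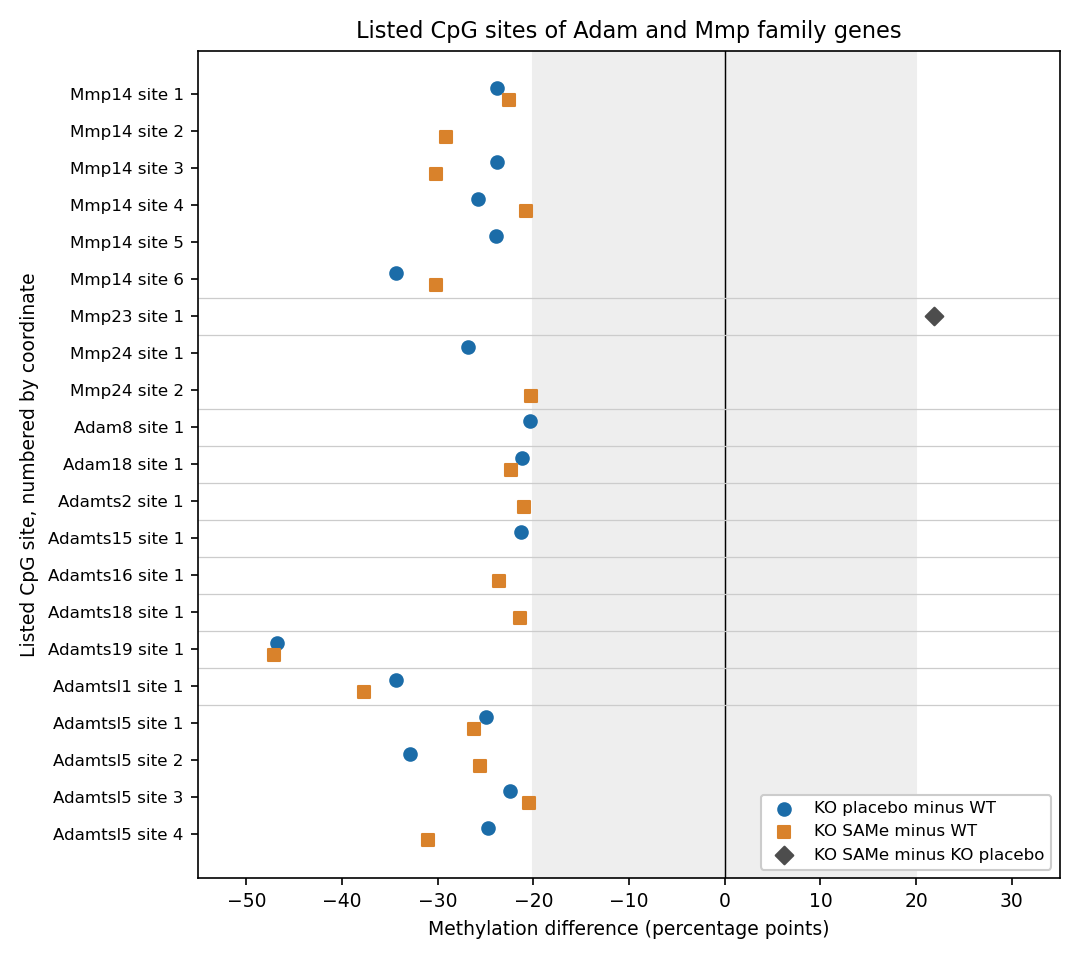
Every listed CpG site of the 12 genes (y axis, numbered by coordinate within a gene) with its methylation difference in percentage points (x axis). Circles are KO placebo minus WT, squares KO SAMe minus WT and the diamond KO SAMe minus KO placebo, and the grey band spans the differences from −20 to 20, in which no site was listed. All circles and squares lie left of the band, with Adamts19 farthest out at −46.8 and −47.1, and the Mmp23 diamond at 21.8 is the only symbol to the right.

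SAMe and placebo within the knockout mice were compared last. A single family gene, Mmp23, had a listed site (1.25% of 80, against 0.658% of all coding genes, or 0.384% with a site higher under SAMe). Mmp23 encodes a metalloproteinase held in the membrane by its amino-terminal end, with an immunoglobulin-like domain in place of the usual hemopexin domain. Position 155652344 on chromosome 4, inside the gene (155650655 to 155654539), was higher with SAMe by 21.8 percentage points in the authors' deposited table (q = 0.00122). It lay 946 bp downstream of the start shown above and 1040 bp downstream of another annotated start of the gene. The nearest other coding gene, Mib2, was 2124 bp away. By absolute difference the Mmp23 site ranked 122 of 230. The site was listed in neither WT comparison, so its distance from WT is not known. With 230 listed sites in all, 1 gene is too few to give the families a direction.

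At sites listed in both WT comparisons the SAMe minus placebo difference follows by subtraction, since the deposited differences add up across the tables. Against the authors' deposited values it was −1.25 percentage points at Adamtsl5 position 80339746 and 7.32 at position 80339756. At position 80339758 it was 2.01 and at position 80339788 of the same run −6.34, so the sign was not the same within 1 run of sites. At Mmp14 it was 1.26 at position 54434231, −6.33 at 54439913, 5.01 at 54443853 and 4.27 at 54443880. Adamtsl1 gave −3.40 and Adam18 −1.12. None of these was listed by the authors as a difference between the knockout groups.

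**Figure D4:**
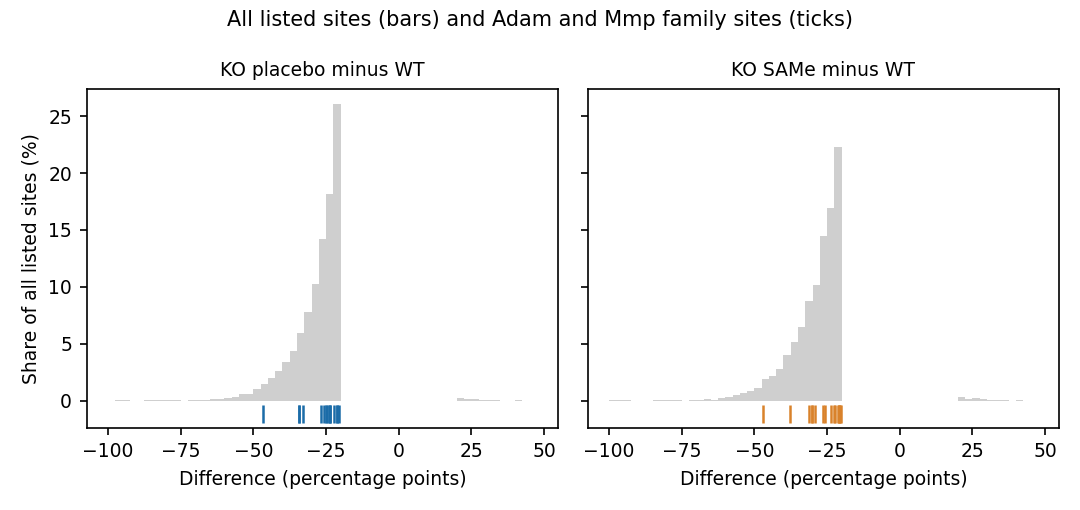
Share of all listed sites (y axis, percent, bars of 2.5 percentage points) by methylation difference (x axis, percentage points) for KO placebo against WT (left) and KO SAMe against WT (right), with family sites as ticks below. Most ticks fall between −35 and −20 percentage points, where most bars also stand, and the leftmost tick in each panel is Adamts19.

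Partners and substrates of the proteases were counted in the same way, and their shares stand beside 12.5% of all coding genes in KO placebo and 10.8% in KO SAMe. That all of their sites were lower stands beside 99.4% and 99.0% of all listed sites. The lists were chosen with earlier results of these data known, so a share above that of all coding genes is not separate evidence. Of 21 genes for inhibitors and activators, 6 (28.6%) had a site in KO placebo and 5 (23.8%) in KO SAMe, all lower (background 12.5% and 10.8%). Pcsk6, a proprotein convertase, stood at −66.5 percentage points in KO placebo and −51.8 in KO SAMe in the authors' deposited tables. Timp2, a tissue inhibitor of metalloproteinases that takes part with Mmp14 in the activation of progelatinase A, stood at −23.3 and −32.5 in the authors' deposited tables. Plg, the precursor of plasmin, stood at −28.3 in both of the authors' deposited tables. Tspan15, a tetraspanin that partners Adam10, stood at −27.6 and, at another of its positions, −21.4 in the authors' deposited tables. Timp1, Timp3, Timp4 and Reck had no listed site.

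Of 24 matrix substrate genes, 8 (33.3%) had a site in KO placebo and 12 (50%) in KO SAMe, again all lower (background 12.5% and 10.8%). Examples by their largest difference were the basement membrane genes Col4a2 (−40.2 in KO placebo, −28.3 in KO SAMe), Lama5 (−35.1 and −34.7), Lamc1 (−31.0 and −28.1) and Col4a1 (−29.4 and −35.1) in the authors' deposited tables. Of 24 cell surface substrates of ADAM proteases, 6 (25%) and 9 (37.5%) had a site, all lower (background 12.5% and 10.8%). Notch2, a receptor cut by Adam10, stood at −42.0 and −40.8 in the authors' deposited tables, and the receptor gene Tnfrsf1b at −34.0 and −34.3. The growth factor genes Egf (−30.0 and −28.5) and Tgfa (−25.1 and −30.5) were also in the authors' deposited tables. Median gene length was 32.1 kb for the inhibitors and activators, 55.7 kb for the matrix substrates and 44.8 kb for the surface substrates, beside 22.1 kb for the proteases and 17.2 kb for all coding genes. The part that gene length, CpG coverage and the choice of the lists with earlier results known have in these shares was not tested. Median differences in KO placebo and KO SAMe were −27.2 and −27.2 for the inhibitors and activators, −24.0 and −27.1 for the matrix substrates and −27.0 and −27.4 for the surface substrates, beside −25.9 and −26.6 over all listed sites. No gene of the 3 lists had a site between the knockout groups, where 0.658% of all coding genes had one.

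Markers of other liver cells were counted as well, 5 genes per type, too few to set against the 12.5% and 10.8% of all coding genes with a site or the 99.4% and 99.0% of all sites that were lower. In KO placebo 2 stellate cell markers (Des and Reln) and 1 each of the endothelial (Stab2), Kupffer and immune (Csf1r) and cholangiocyte (Sox9) markers had a site, all lower. KO SAMe gave 2, 0, 1 and 1, all lower. Between the knockout groups Cd79b was the only marker with a site, higher under SAMe by 21.8 percentage points in the authors' deposited table. Bulk liver mixes cell types, and without methylation levels a change in cell makeup and a change within cells cannot be told apart.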

How the data were processed

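Reduced-representation bisulfite libraries of 19 mouse livers were compared by the authors in 3 tables on mm10. CASAVA 1.8.2, Trim Galore, Bismark and methylKit are named per the submitters' processing notes, without order or settings. The p-values and q-values deposited by the authors, and their methylation differences in percentage points, were used as given; the test behind them is not given in the sources used here. Over the tables, the smallest absolute difference listed was 20.0 and the largest q-value 0.0495. No level, coverage or value per animal was used here, so no test over animals could be run. At the 26 sites in all 3 tables the differences added up to within 1e-07, so the sign has 1 meaning throughout.

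Sites were assigned with pandas 2.3.3 to the protein-coding entries of RefSeq (GRCm38.p6) on chromosomes 1 to 19, X and Y, which shares its primary coordinates with mm10. The assignment was tested on simulated sites. Sites of a gene within 1 kb were joined into regions. Gene strand came from the RefSeq promoter table, whose overlapping windows on opposite strands matched as reverse complements in 1864 of 1864 pairs. Every family gene with a site was named, with all sites for genes with 3 or more sites in a table, a difference of at least 35 percentage points or a listing between the knockout groups, and the largest difference otherwise; list genes were named by their largest difference, at most 4 a list. The families and lists were chosen with earlier results of these data known. A planned count of sites shared by both WT comparisons is not given, since they share WT animals. Alternatives covered the window, both thresholds, shared sites, the Adamtsl genes and the joining distance.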

Additional observations from a re-analysis of the deposited data

How the results depend on the processing

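The tables hold group differences only, so no animal could be left out, and the depth behind each site is unknown. No paired analysis was possible because the tables carry no value per animal and the animal codes pair no mice. Of 50 recomputed counts, shares and medians, 41 stayed the same. This meant within 1.5 times for a count, within 1 SD over sites for a median and an equal value for a share. Among these 50, only medians were checked for a turn of direction, and none turned. All family sites of a comparison had the same sign, so settings that only drop sites could not turn a median. Requiring a difference of at least 25 percentage points left fewer sites to enter. It left 5 genes and 6 sites in WT vs KO placebo and 4 genes and 8 sites in WT vs KO SAMe. In KO placebo vs KO SAMe it left 0 genes and 0 sites. The alternatives were not recounted over all protein-coding genes, so these counts cannot be set against a background share. Counting only sites inside a gene left 7 of 15 sites for KO placebo against WT and 9 of 16 for KO SAMe against WT, because the Adamtsl5 run, the outer Mmp14 run and the Adam18 site lie past the gene ends. With 10 kb on either side WT vs KO placebo had 23 sites, the added ones lying near Adamtsl5 and Mmp24. At the stricter difference no share of lower sites could be given between the knockout groups. The largest q-value of any family site was 0.00122, and no family site lay within 2 kb of another coding gene. The q-value limit of 0.01 and the removal of sites near another coding gene therefore dropped nothing and could not test the counts. Their unchanged values are included in the 41 above and in the 91 below. Leaving out the Adamtsl genes changed the number of genes with a site by no more than 1.5 times. Without the Adamtsl genes, 1 gene in place of 2 had 3 or more sites in each WT comparison, and 1 in place of 2 reached 35 percentage points in KO SAMe. Of 91 recomputed largest differences of single genes, 5 took another value, all of them lower in the knockout group as before. Cases where a gene lost every site are not among the 91, such as Adam18 and Adamtsl5 with only sites inside the gene. The 10 and 11 regions of the WT comparisons stayed within 1.5 times with sites joined within 100 bp or 5 kb.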

Other observations

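Beyond the 2 kb limit, listed sites within 10 kb of a family gene lay near Mmp24 and Adamtsl5. Eif6, a ribosome assembly factor next to Mmp24, held 3 sites 7121 to 7168 bp past the upper end of Mmp24. They stood at −24.0, −27.1 and −38.3 percentage points in KO placebo and at −24.5, −29.7 and −44.6 in KO SAMe in the authors' deposited tables. Reep6, whose product shapes the endoplasmic reticulum, held 4 sites 5664 to 5713 bp below Adamtsl5, from −40.9 to −21.7 in KO placebo in the authors' deposited table. None of these Reep6 sites was listed in WT vs KO SAMe or in KO placebo vs KO SAMe. Their absence means a difference below the thresholds or missing coverage, and does not show whether the knockout groups differ there.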
